A study of Mus musculus with 3 samples.

Results

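The genes for the collagen chains were examined in RNA-seq of the mouse melanocyte line melan-a. A gene was a member when its annotated mouse symbol was Col, a number, the letter a and a number, which gave 43 genes of the 22698 in the data. They lie on 14 chromosomes. The line is immortalized, its labels give the strain C57BL/6J, and they describe the cells as melanocytes from Ink4a-ARF-/- mice, so all values come from cells with that deletion. The cells received no experimental treatment and grew in RPMI medium with 10% fetal bovine serum, 200 nM 12-O-tetradecanoylphorbol 13-acetate (a phorbol ester) and 200 pM cholera toxin, so both agents were present in every sample. There were 3 replicates, labelled 1, 3 and 4, and no other condition, so levels were described and no groups of samples were compared. Nothing in the labels says how far apart the replicate cultures were, so their spread may be partly technical.

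Collagens are proteins of the extracellular matrix in which 3 chains wind into a helix, and each gene encodes 1 chain. The helix is made of repeats of 3 residues that begin with glycine (Gly-X-Y). Fibrillar collagens have a long unbroken helix and assemble into the fibrils of dermis, tendon, bone and cartilage. Type IV collagen has a helix with many interruptions and forms the network of basement membranes, such as the sheet below the epidermis on which melanocytes of the skin sit. Other classes decorate fibrils, form short-chain networks, span the cell membrane or carry long interruptions with attached sugar chains (the multiplexins). This difference was visible in the proteins translated from the annotated transcripts. The longest run of uninterrupted Gly-X-Y repeats had a median of 1014 residues over the 11 fibrillar chains (range 648 to 1032) and of 131 residues over the 6 type IV chains (range 117 to 198).

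Levels are given as FPKM, a read number divided by gene length and by library size, so they can be compared between genes of different length. The values carry 2 decimals, and 0.01 is their smallest step. The library sizes recovered from low values were 53800000, 47000000 and 66300000 reads for replicates 1, 3 and 4. There, 3 reads on 1 kb of exon came to 0.0558, 0.0638 and 0.0452 FPKM. The deposited values are named as TMM-scaled (adjusted between libraries), so these sizes may differ from the numbers of reads counted. The labelled cell type was checked first. All 8 melanocyte markers were above 1 FPKM, with a summed level of 5779 to 6617 FPKM. None of 8 fibroblast markers reached 1 FPKM (summed level 0.26 to 0.34 FPKM), and Lum, Dpt and Fap were listed at 0. None of 7 keratinocyte markers (0.38 to 0.72) and none of 5 endothelial markers (0.04 to 0.06) reached 1 FPKM, and of 4 immune markers Cd68 alone did (summed level 0.76 to 1.60). Of 5 Schwann and glial markers 4 did, with a summed level of 20.9 to 48.1 FPKM that came mostly from Cdh19.

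The start of the gene pair with the highest levels is shown first, because both genes are read from it in opposite directions. Col4a1 and Col4a2 encode the chains that make up the commonest type IV collagen. In mm9, Col4a1 (ENSMUSG00000031502) lies at chr8:11198423-11312826 on the minus strand and Col4a2 (ENSMUSG00000031503) at chr8:11312805-11449287 on the plus strand. Their first exons overlap by 22 bases, at chr8:11312805-11312826, which read as follows on the plus strand.
Shared start of Col4a1 and Col4a2: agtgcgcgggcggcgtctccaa
The stretch has 72.7% GC and 4 CpG dinucleotides. The libraries were stranded, but the strand setting of the counting was not given in the sources used here, and 22 bases were 0.323% of the exon bases of Col4a1 and 0.332% of those of Col4a2.

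The 250 bases before the start of 3 further genes are shown because the genes differ in CpG content and in level. They come from RefSeq on GRCm38.p6, which is not the build of the data, and are written from 5′ to 3′ on the strand of the gene. Col5a1 (2:27886175-27886424, plus strand) and Col28a1 (6:8192618-8192867, minus strand) had similar levels, and Col1a2 (6:4505368-4505617, plus strand) was close to 0. Capitals in Col5a1 mark matches to GCCNNNGGC, the core of the motif bound by TFAP2 factors, and capitals in Col1a2 mark a CCAAT box.
Col5a1: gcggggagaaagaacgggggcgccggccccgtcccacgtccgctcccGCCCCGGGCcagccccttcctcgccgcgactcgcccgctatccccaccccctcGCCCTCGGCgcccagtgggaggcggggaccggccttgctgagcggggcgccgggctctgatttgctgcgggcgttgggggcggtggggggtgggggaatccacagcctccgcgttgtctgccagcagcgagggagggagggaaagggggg
Col28a1: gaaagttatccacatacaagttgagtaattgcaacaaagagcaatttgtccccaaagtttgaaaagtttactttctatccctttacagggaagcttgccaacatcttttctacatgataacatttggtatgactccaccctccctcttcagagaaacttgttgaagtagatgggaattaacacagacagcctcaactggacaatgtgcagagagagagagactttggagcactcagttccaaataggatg
Col1a2: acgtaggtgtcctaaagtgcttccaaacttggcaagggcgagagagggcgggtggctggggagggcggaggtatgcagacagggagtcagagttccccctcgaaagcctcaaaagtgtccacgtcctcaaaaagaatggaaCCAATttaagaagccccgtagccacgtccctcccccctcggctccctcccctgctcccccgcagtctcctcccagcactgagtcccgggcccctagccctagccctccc
These stretches hold 28 CpG dinucleotides in Col5a1, none (0) in Col28a1 and 11 in Col1a2, with 76.4%, 40.4% and 62.0% GC. None of the 5 motifs searched was found in that of Col28a1.

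Over all promoters (250 bases before to 50 after the start), 11 of the 12 collagen genes at or above 1 FPKM and 24 of the 31 below it had an entry. The median number of CpG dinucleotides was 12 in 13 promoters of the first set and 11 in 25 promoters of the second. It was 7 in all 32851 promoters. Those belong to 27025 genes, a larger set than the 22309 protein-coding genes used as background for levels. The motif shares below use the same set of all promoters. Both ends of the range occurred at high and at low levels. Col8a2 had 32 CpG dinucleotides and was listed at 0, while Col28a1 had none and a mean of 72.3 FPKM. The motif GCCNNNGGC was found on either strand in 9 of 38 collagen promoters (23.7%) and in 16.6% of all promoters, and Col5a1 held 3 matches, the most among the collagen genes. The E-box CACGTG was found in 0 collagen promoters against 7.15% of all, CATGTG, the core of the M-box, in 3 against 14.2%, CCAAT in 13 against 37.4% and TATAAA in 5 against 13.6%. A match to GCCNNNGGC with AAT in its middle also holds CCAAT, and the windows of Col4a1 and Col4a2 overlap, so a match can be counted for both. These are matches of letters and were not tested as sites.

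Of the 43 collagen genes, 12 had a mean of 1 FPKM or more, and each of these was above 1 FPKM in all 3 replicates. Among 22309 protein-coding genes the share was 45.9%. Their median was 38.5 FPKM, against 10.8 FPKM for the protein-coding genes above the same level. Over all members, the median was 0.233 FPKM, against 0.353 FPKM for all protein-coding genes. Of the 12, 10 were above 10 FPKM. Altogether 5 were among the 1000 highest genes, where 4.48% of the protein-coding genes stand. Another 9 were listed at 0 in all 3 replicates, as were 30.3% of the protein-coding genes. The other 22 were above 0 and below 1 FPKM, with a median of 0.183 FPKM.

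**Figure D1:**
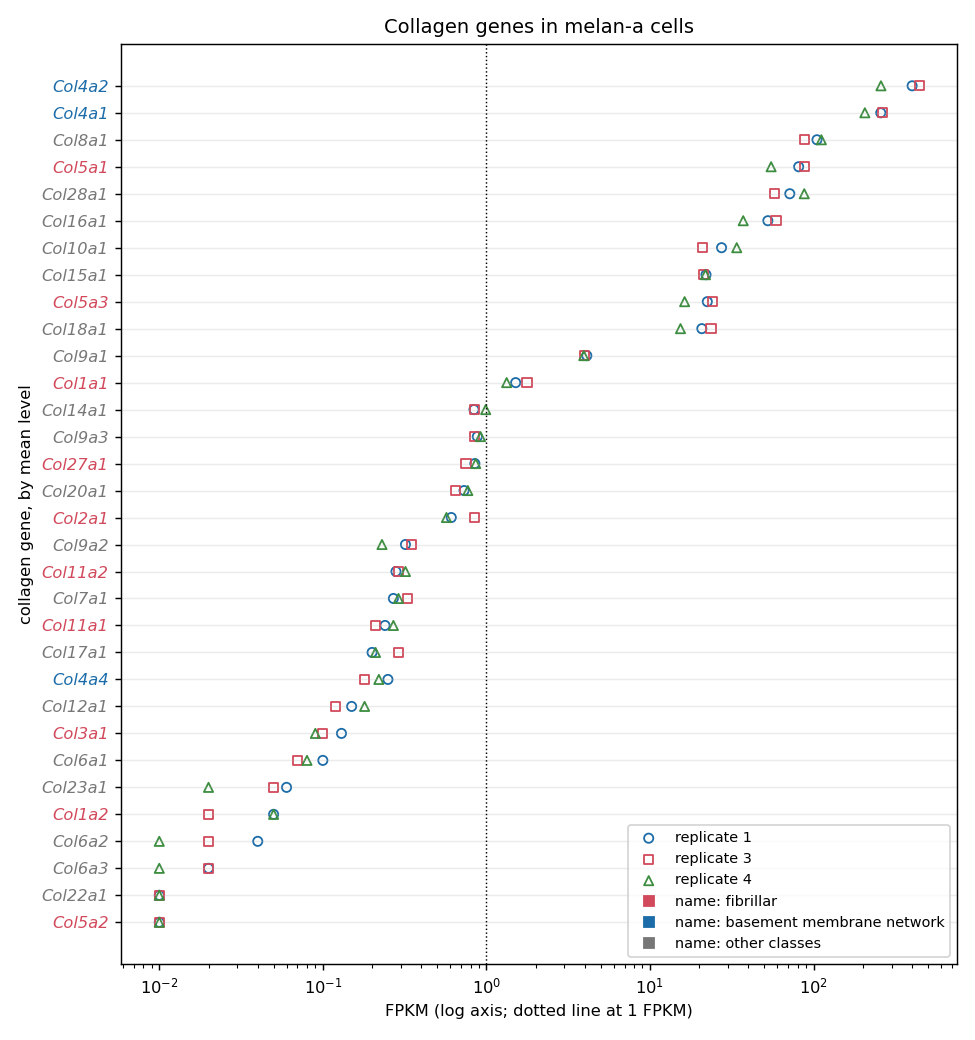
Level of each collagen gene in each replicate (FPKM, log axis), ordered by mean; circles, squares and triangles are replicates 1, 3 and 4, and name colours give the class. The 32 genes above 0 in every replicate are drawn, and the 12 at or above 1 FPKM stand to the right of the dotted line, from Col4a2 at 258 to 444 FPKM down to Col1a1 at 1.33 to 1.77 FPKM.

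The basement membrane collagens led all others. Replicates 1, 3 and 4 gave 400.75, 444.19 and 258.38 FPKM for Col4a2, a mean of 368 ± 97.2 (SD, n = 3) and rank 120 of all genes. Col4a1 stood at 257.63, 264.39 and 206.00 FPKM, with a mean of 243 ± 31.9 (SD, n = 3) and rank 197. Both were highest in replicate 3 and lowest in replicate 4. The other type IV chains build the networks of the kidney filter, the lens, the inner ear and some other basement membranes. Col4a4 was at 0.25, 0.18 and 0.22 FPKM, Col4a3 was listed at 0.01 FPKM in replicate 1 and at 0 in the others, and Col4a5 and Col4a6 were at 0 in all. Thus 2 of the 6 chains of this class were at or above 1 FPKM.

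Among the fibrillar chains, 3 of 11 were at or above 1 FPKM, and 2 of these belong to type V, which is known for starting and limiting the growth of fibrils of other types. Col5a1 (ENSMUSG00000026837, chr2:27741945-27895034, plus strand in mm9) was at 81.13, 88.02 and 55.04 FPKM in replicates 1, 3 and 4, a mean of 74.7 ± 17.4 (SD, n = 3). Col5a3 (ENSMUSG00000004098, chr9:20574494-20619511, minus strand) was at 22.42, 24.11 and 16.29 FPKM, a mean of 20.9 ± 4.11. Col1a1 (ENSMUSG00000001506, chr11:94797538-94814356, plus strand) encodes the main chain of type I collagen, the most abundant collagen of dermis and bone, and was at 1.51, 1.77 and 1.33 FPKM, a mean of 1.54 ± 0.221. All 3 were lowest in replicate 4.

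The other fibrillar chains stayed below 1 FPKM. Col27a1 was at 0.85, 0.75 and 0.86 FPKM and Col2a1, the cartilage chain, at a mean of 0.677 ± 0.151 FPKM. The type XI chains, which take part in cartilage fibrils, had means of 0.297 FPKM for Col11a2 and 0.240 for Col11a1. Col3a1, the chain of the type III fibrils that accompany type I in skin and vessels, had a mean of 0.107 FPKM, Col1a2 of 0.0400 and Col5a2 of 0.01, which is the smallest step of the values. Col24a1 was listed at 0.

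Both network collagens of short chains with a level above 1 FPKM were well separated from the third. Col8a1 (ENSMUSG00000068196, chr16:57624371-57754850, minus strand) encodes a chain of type VIII, found below the endothelium of vessels and in the membrane under the corneal endothelium. It was at 104.98, 88.52 and 111.67 FPKM, a mean of 102 ± 11.9 (SD, n = 3). Col10a1 (ENSMUSG00000039462, chr10:34109787-34116891, plus strand) encodes type X, a marker of hypertrophic cartilage cells, and was at 27.40, 20.93 and 33.92 FPKM, a mean of 27.4 ± 6.50. Both were lowest in replicate 3 and highest in replicate 4, the reverse of the type IV and V chains above 1 FPKM. Col8a2 was listed at 0. Col10a1 lies inside Nt5dc1 on the opposite strand, which was at 2.19, 1.87 and 2.57 FPKM, and the exons of both share 18 bases (0.575% of those of Col10a1).

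Col28a1 (ENSMUSG00000068794, chr6:7947808-8142617, minus strand) encodes type XXVIII, a collagen with von Willebrand factor A domains that has been described around peripheral nerves. It was at 71.60, 57.42 and 87.77 FPKM, a mean of 72.3 ± 15.2 (SD, n = 3) and rank 903. Its order over the replicates, lowest in 3 and highest in 4, was that of Col8a1 and Col10a1. The glial marker Cdh19 (26.66, 15.17 and 42.01 FPKM) had the same order. Its part in the levels of Col28a1, Col8a1 and Col10a1 was not tested.

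Of the fibril-associated collagens, which attach to the surface of fibrils or link them to other matrix, 2 of 9 were at or above 1 FPKM. Col16a1 (ENSMUSG00000040690, chr4:129725084-129776527, plus strand) was at 52.57, 58.89 and 37.16 FPKM, a mean of 49.5 ± 11.2 (SD, n = 3). Col9a1 (ENSMUSG00000026147, chr1:24184449-24259577, plus strand), a type IX chain known from cartilage and the eye, was at 4.11, 4 and 3.94 FPKM, a mean of 4.02 ± 0.0862. Col16a1 was lowest in replicate 4, while the values of Col9a1 stayed close together. Just below 1 FPKM were Col14a1 at 0.84, 0.85 and 0.99 FPKM and Col9a3 at 0.88, 0.85 and 0.92 FPKM. Col20a1 had a mean of 0.717 FPKM, Col9a2 of 0.300, Col12a1 of 0.150 and Col22a1 of 0.01, and Col19a1 was listed at 0.

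Both multiplexins were above 1 FPKM and lay close together. They are collagens of basement membrane zones, and the end of Col18a1 is the source of the fragment endostatin. Col15a1 (ENSMUSG00000028339, chr4:47221033-47326039, plus strand) was at 22.01, 21.22 and 21.84 FPKM, a mean of 21.7 ± 0.416 (SD, n = 3). Col18a1 (ENSMUSG00000001435, chr10:76514923-76629293, minus strand) was at 20.75, 23.60 and 15.37 FPKM, a mean of 19.9 ± 4.18. The means of Col15a1, Col5a3 and Col18a1 differed by less than the larger of their SDs, and so did those of Col5a1 and Col28a1. The means alone thus did not resolve an order within these sets. Within replicates, Col5a3 was above Col18a1 in each, while the place of Col15a1 changed between replicates. Col5a1 was above Col28a1 in replicates 1 and 3 and below it in replicate 4, and it was level with Col8a1 in replicate 3 alone.

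The beaded filament, anchoring fibril and transmembrane classes were close to 0. All 6 type VI chains, which form beaded filaments around many cells, were below 1 FPKM, with means of 0.0833 for Col6a1, 0.0233 for Col6a2 and 0.0167 for Col6a3, and Col6a4, Col6a5 and Col6a6 were listed at 0. Col7a1, the anchoring fibril that ties the epidermal basement membrane to the dermis, had a mean of 0.297 ± 0.0306 FPKM. Of the 4 transmembrane collagens, Col17a1, a part of hemidesmosomes in keratinocytes, had a mean of 0.233 FPKM, Col23a1 of 0.0433, Col25a1 was listed at 0.01 in replicate 4 alone, and Col13a1 at 0 in all. For a gene with the exon length of Col13a1, 3 reads would be 0.0121, 0.0138 and 0.00981 FPKM, which was the floor used here for a measurable level.

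The summed level of all collagen genes came to 1073, 1103 and 855 FPKM in replicates 1, 3 and 4. The basement membrane class made up 61.4%, 64.3% and 54.4% of it, a mean of 60% ± 5.10 (SD, n = 3), and Col4a1 and Col4a2 made up nearly all of this. The fibrillar class made up 9.76% ± 0.910, and the other classes 30.2% ± 6.01. Among these, the short-chain class had 13.1%, Col28a1 7.38%, the fibril-associated class 5.56% and the multiplexins 4.13%. The order of the 3 main groups was the same in each replicate. The basement membrane and fibrillar groups each rested strongly on 1 gene. The other classes were spread over more genes, with Col8a1 at a mean of 10.3% of the sum. Leaving out the highest gene of a group lowers the share of that group in any case. Without Col4a2 the basement membrane share was 37.7% and the other classes, with a mean of 46.9%, were ahead of it in all 3 replicates, a comparison chosen after the values were seen. Without Col5a1 the fibrillar share was 2.63%, and without Col8a1 the share of the other classes was 22.3%.

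**Figure D2:**
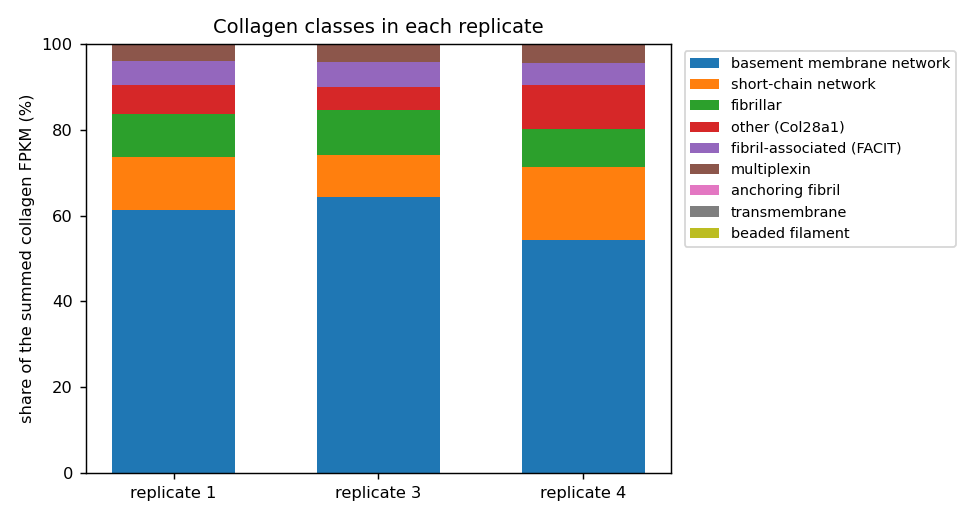
Share of each structural class in the summed collagen FPKM (%), with 1 stacked bar per replicate. The basement membrane class has 61.4%, 64.3% and 54.4% in replicates 1, 3 and 4, and the short-chain class and Col28a1 take larger shares in replicate 4 than in the others; the anchoring fibril, transmembrane and beaded filament classes are too small to be seen.

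Chains of the same collagen type were then set against each other. Whether a chain can form a helix without its partner was not examined. Ratios were taken within each replicate on log2(FPKM + 0.01). There were 9 pairs listed and 1 added after the values were seen (Col5a1 and Col5a3). Of these, 7 had an estimated 3 reads or more for both chains in every replicate. The estimates rest on rounded values, so those for chains listed at 0.01 FPKM are uncertain. In all 7 the same chain was higher in all 3 replicates. The exact two-sided sign-flip permutation test gave p = 0.25 for each (adjusted p = 0.25), which is the smallest that 3 replicates allow, so none of these differences could reach significance.

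Type IV was the collagen with both chains at similar high levels. Col4a2 was 1.56, 1.68 and 1.25 times as high as Col4a1 in replicates 1, 3 and 4, and the log2 ratio of Col4a1 to Col4a2 was -0.57 ± 0.22 (SD, n = 3). In type I the chains stood far apart. Col1a1 was 30.2, 88.5 and 26.6 times as high as Col1a2, a log2 ratio of 5.01 ± 0.77. Col1a2 was at 0.05, 0.02 and 0.05 FPKM, or about 32.7, 11.4 and 40.3 reads. The ratio fell to 4.17 when lengths of the longest transcript were used and to 1.28 with a pseudocount of 1. In type V, Col5a1 was 3.62, 3.65 and 3.38 times as high as Col5a3 (log2 ratio 1.83 ± 0.06), whereas Col5a2, with which it forms the usual type V molecule, was at the smallest step of the values in each replicate. The log2 ratio of Col5a1 to Col5a2 was 11.84 ± 0.36, with only about 4.51 to 6.36 reads behind the latter. As Col5a2 equalled the pseudocount, the size of this ratio was set by the latter and by rounding, and it was 12.84 with no pseudocount, 9.38 with 0.1 and 6.20 with 1.

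The remaining ratios concerned low genes. Col9a1 was 12.8, 11.4 and 17.1 times as high as Col9a2 (log2 ratio 3.72 ± 0.29). Col6a1 was above Col6a2 with a log2 ratio of 1.57 ± 0.53, on fewer than 24 reads for each chain in any replicate, and the ratio was 0.08 with a pseudocount of 1. The type XI chains were the closest pair, with a log2 ratio of Col11a1 to Col11a2 of -0.30 ± 0.13. No ratio was tested for Col8a1 and Col8a2, Col4a3 and Col4a4, or Col4a5 and Col4a6, since a chain of each was listed at 0 in at least 1 replicate.

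**Figure D3:**
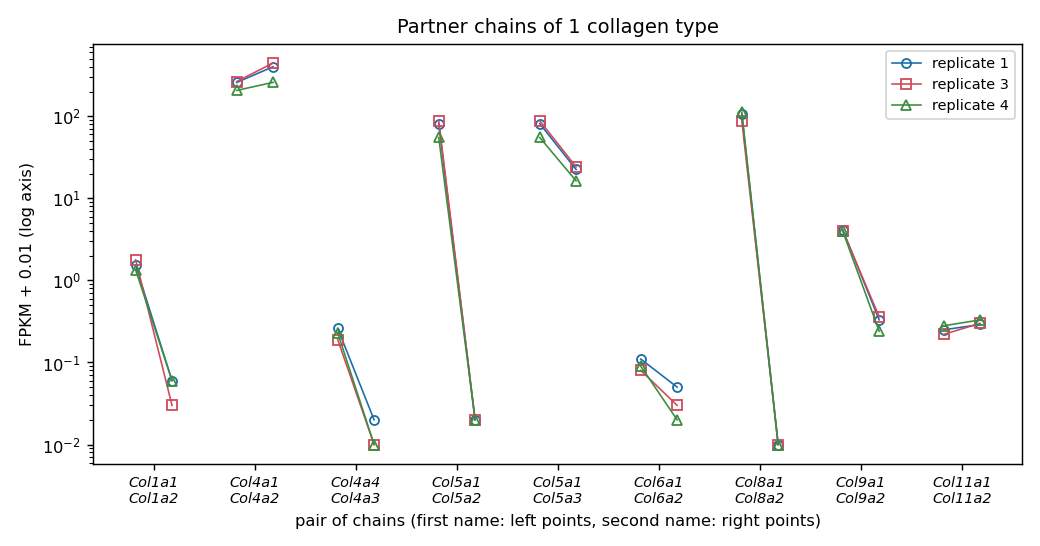
Levels of partner chains (FPKM + 0.01, log axis), with the first named gene of a pair on the left and the second on the right, and 1 line per replicate. The line is nearly flat for Col4a1 and Col4a2 and for Col11a1 and Col11a2, and steep for Col1a1 and Col1a2, Col5a1 and Col5a2, and Col8a1 and Col8a2, where 0.01 stands for a value listed at 0.

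Several collagen genes are neighbours in the genome, and 8 pairs were adjacent members. The 3 divergent pairs were all type IV genes. Col4a1 and Col4a2 overlapped by 22 bases and had means of 243 and 368 FPKM. Col4a4 and Col4a3 were separated by 71 bases on chromosome 1 and had means of 0.217 and 0.00333 FPKM. Col4a6 and Col4a5 were separated by 1308 bases on chromosome X and were both listed at 0. Divergent pairs thus held the highest levels of the family and also genes listed at 0. The 2 convergent pairs were Col9a1 with Col19a1 (4.02 and 0 FPKM) and Col3a1 with Col5a2 (0.107 and 0.01 FPKM). The 3 pairs on the same strand were type VI genes, none above 0.0833 FPKM. Genes listed at 0 thus occurred in each arrangement.

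The replicates differed among themselves in a way that split the collagen genes. Over the 12 genes at or above 1 FPKM, the log2 ratio of replicate 3 to replicate 4 had a median of 0.39 and ran from -0.70 (Col10a1) to 0.78 (Col4a2), against a median of 0.02 over 10005 protein-coding genes. The 8 genes that were higher in replicate 3 had a transcript GC content of 52.2% to 61.6% (median 59.3%). The 4 that were higher in replicate 4, Col8a1, Col28a1, Col10a1 and Col15a1, had 46.8% to 56.4% (median 50.03%). This split is by sign alone. Col15a1 (log2 ratio -0.04) and Col9a1 (0.02) were nearly level between these replicates, and they set the overlapping ends of the GC ranges. As a description across genes, which share their libraries and are not independent, Spearman's rho of this ratio with GC content was 0.832 over the 12 collagen genes and 0.781 over the protein-coding genes. For replicates 1 and 3 it was -0.797 and -0.722, and for replicates 1 and 4 it was 0.839 and 0.701. The collagen genes at or above 1 FPKM had a median GC content of 57.9%, against 50.4% for the protein-coding genes, and a median coefficient of variation over the replicates of 20.3%, against 11.6%. Col15a1 (1.92%) and Col9a1 (2.15%) varied least and Col4a2 (26.4%) most. The part of GC content in these differences was not tested.

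**Figure D4:**
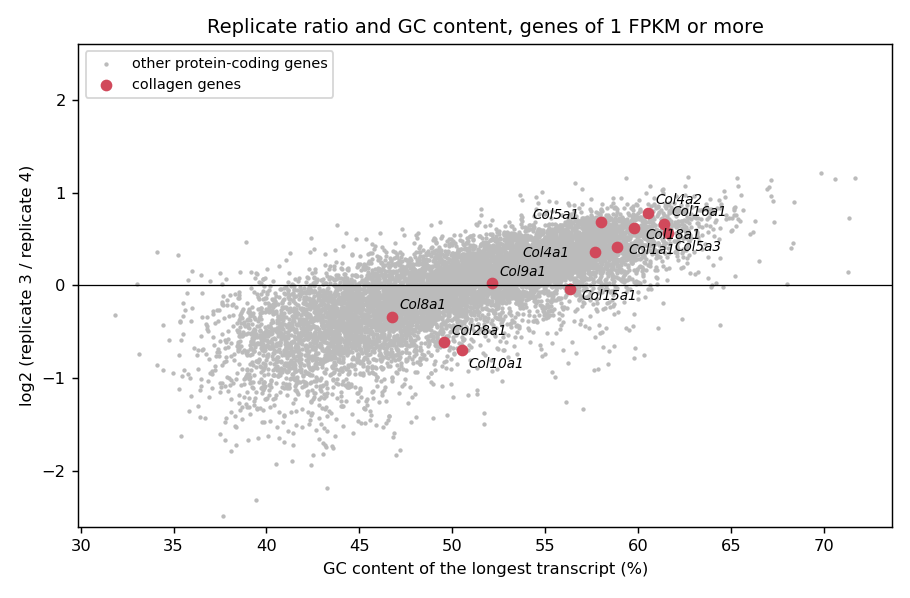
Log2 ratio of replicate 3 to replicate 4 against the GC content of the longest transcript (%), for genes at or above 1 FPKM in every replicate; red points are the 12 collagen genes and grey points the other protein-coding genes. Col8a1, Col28a1 and Col10a1 lie below 0 at a GC content of up to 50.5%, and the type IV and V genes drawn lie above 0.

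Genes whose products make, modify and bind collagen were counted as a last group, from 7 lists of 47 genes, of which 46 were found in the data. At or above 1 FPKM were 30 of the 46, and 16 were below it (background 45.9% of the protein-coding genes). Serpinh1, the collagen chaperone HSP47, was at 972.49, 1105.06 and 814.39 FPKM, a mean of 964 ± 146 (SD, n = 3) and rank 27 of all genes. For prolyl hydroxylation, which stabilises the helix, 8 of 9 genes were at or above 1 FPKM, led by Ppib (365 ± 26.8), a prolyl isomerase of the 3-hydroxylation complex, and P4hb (365 ± 34.4), the shared subunit of prolyl 4-hydroxylase. P4ha3 was the exception at 0.103 FPKM. Of the lysyl hydroxylases and glycosyltransferases and their partner, 5 of 6 were above 1 FPKM, led by Plod1 (109 ± 21.0), with Colgalt2 at 0.0167. In the folding and export list 3 of 4 were, with Creb3l1, a transcription factor for secretory genes, at 0.640.

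The other lists hold genes that act outside the cell or at its surface, and their counts stand beside the same 45.9% of all protein-coding genes. For removal of the propeptides, which lets fibrillar chains assemble, 5 of 8 genes were at or above 1 FPKM, led by Pcolce (135 ± 6.96 FPKM), the enhancer of the C-proteinase. Of the N-proteinases, Adamts14 was at 7.94, 9.28 and 5.80 FPKM (mean 7.67 ± 1.76), while Adamts2 and Adamts3 had means of 0.00333 FPKM each. Tll2, of the C-proteinase family, had a mean of 0.00667 FPKM. For cross-linking, 4 of 7 were, led by Loxl3, a lysyl oxidase, at 227.42, 260.10 and 194.21 FPKM (mean 227 ± 32.9). Lox itself had a mean of 0.01 FPKM, Loxl2 of 0.0567 and Loxl4 of 0.547. Of the 4 small leucine-rich proteoglycans that bind fibrils, Fmod was at 2.12 ± 0.164 FPKM, while Dcn (0.0133) and Bgn (0.00667) were near 0 and Lum was listed at 0. Of the receptors, 4 of 8 were, led by the integrin chain Itgb1 (453 ± 40.8), which pairs with many alpha chains besides those that bind collagen. The receptor kinase Ddr1 had a mean of 55.1 ± 14.3 FPKM, and the alpha chains Itga2 and Itga1 of collagen-binding integrins had means of 5.09 ± 1.35 and 3.80 ± 0.675. Below 1 FPKM were the alpha chains Itga10 (0.127) and Itga11 (0.00333), the receptor kinase Ddr2 (0.343) and the uptake receptor Mrc2 (0.0333).

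**Figure D5:**
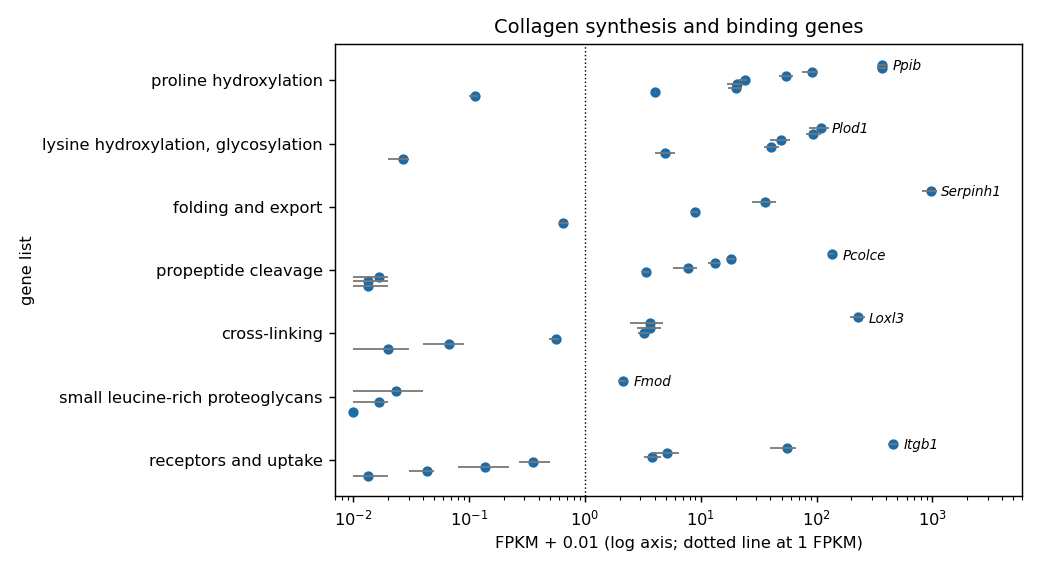
Mean level of 46 genes for collagen synthesis and binding (FPKM + 0.01, log axis), by list; points are means of the 3 replicates, grey lines run from the lowest to the highest replicate, and the highest gene of each list is named. Serpinh1 stands highest at 964 FPKM, and 30 of the 46 genes lie at or right of the dotted line at 1 FPKM.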

How the data were processed

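RNA-seq values for melan-a cells in 3 replicates were used. The authors trimmed 10 bases from each read, aligned to mm9 with STAR 2.3.0e, removed rRNA reads, counted with htseq-count (HTSeq 0.5.3p3) on Ensembl release 67, and deposited 1 FPKM value per gene and replicate, which the deposited files name as TMM-scaled. The gene length behind FPKM was not given in the sources used here.

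Symbols, positions and lengths were read from the Ensembl release 65 gene models on mm9, which lack 374 of the genes. Library sizes were estimated from 66, 60 and 77 genes of up to 400 bases with 1 transcript, whose values must be whole reads. Values lay on average 0.0398, 0.0360 and 0.0531 reads away from whole reads. Estimated reads of other genes use the joined exons, so they are approximate. This step was tested on simulated data.

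Levels are means ± SD. A gene was called at a mean of 1 FPKM or more. Chain ratios used a pseudocount of 0.01, a floor of 3 reads and an exact two-sided sign-flip permutation test with Benjamini-Hochberg adjustment. Classes, lists and members were chosen with earlier results of these data known. Named were all collagen genes at or above 1 FPKM, the next 3, those at 0, neighbouring members, the highest gene of each list and list genes below 1 FPKM. P4hb, Adamts14, Ddr1, Itga1, Itga2, Nt5dc1, Cdh19, Cd68 and the collagen genes with other low values were named after their values were seen, and the motifs were chosen then too. Promoters came from RefSeq on GRCm38.p6. Alternatives concerned the threshold, the scaling, the pseudocount, the length, the background and each replicate left out. Mia3 was not matched, and 1 marker of the Schwann and glial list is not reported here. The work used matplotlib 3.10.9, scipy 1.17.1, pandas 2.3.3, statsmodels 0.14.6 and numpy 2.4.6 in Python 3.11.15.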

Additional observations from a re-analysis of the deposited data

How the results depend on the processing

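The number of collagen genes above the threshold was 12 with each replicate left out and ran from 11 at 2 FPKM to 17 at 0.5 FPKM and with each replicate rescaled to the fixed sum of TPM, which raised all values. The synthesis and binding genes ran from 30 to 32. The limit was 1.5 times for counts, 1 SD over the replicates for shares, 1 SD over the 3 pairs of replicates for the median replicate ratio and the sign alone for chain ratios, whose size fell with the pseudocount. By these limits 82 values stayed, 7 moved and 0 reversed. Each share was judged alone, so the change in the order of the classes without Col4a2 could not count as a reversal. With a pseudocount of 1, the log2 ratio was 1.28 for Col1a1 to Col1a2, 6.20 for Col5a1 to Col5a2 and 0.08 for Col6a1 to Col6a2. The protein-coding share at 1 FPKM was 45.1% over all genes and 65.8% over genes above 0. The basement membrane share was 37.7% without Col4a2. The fibrillar share was 12.3% by reads (FPKM times exon length) and 2.63% without Col5a1, and that of the other classes was 22.3% without Col8a1. The median log2 ratio of replicates 3 and 4 over the collagen genes was 0 with no filter and a pseudocount of 0.1. Leaving out replicates moved the basement membrane share between 57.9% and 62.8% and the log2 ratio of Col1a1 to Col1a2 between 4.57 and 5.28. No paired comparison between groups of samples was possible because there is 1 group. Values carry 2 decimals, so levels below 0.01 FPKM are not resolved.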

Other observations

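Genes outside the collagen family that encode collagen-like stretches or related matrix proteins were also read, from a list of 17 chosen after the values were seen, and 0 of them reached 1 FPKM. The highest was Colq, which encodes the collagen tail of acetylcholinesterase, at 0.20, 0.36 and 0.23 FPKM in replicates 1, 3 and 4 (mean 0.263 ± 0.0850, SD, n = 3). Scara5, a scavenger receptor, was at 0.24, 0.23 and 0.28 FPKM (mean 0.25 ± 0.0265). The complement genes C1qa and C1qc were listed at 0 in all replicates, and C1qb had a mean of 0.0200 FPKM. Emid2, an earlier name of Col26a1 under which it stands in the annotation used, was listed at 0 in all replicates.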
